A study of Mus musculus with 8 samples.

Results

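The let-7 family is a group of microRNAs (miRNAs, short RNAs that guide Argonaute proteins to complementary mRNAs) and Lin28b is the RNA-binding protein known to block the maturation of its precursors. The 9 mature 5p strands of the family listed under mouse names (mmu-let-7a-5p, mmu-let-7b-5p, mmu-let-7c-5p, mmu-let-7d-5p, mmu-let-7e-5p, mmu-let-7f-5p, mmu-let-7g-5p, mmu-let-7i-5p and mmu-miR-98-5p, written below without the species prefix) were taken by name from 671 mouse-named miRNAs, out of 1600 rows in all, and Lin28b was taken by its symbol from 22298 mRNA rows. These 10 members were followed in B cells sorted from the bone marrow of wild-type female C57BL/6 mice aged 8 to 10 weeks, with 3 mice pooled for each sorted population. Among B220+ cells, those without surface IgM were pro-B when CD43+ and pre-B when CD43-. Cells with IgM and no CD43 were immature B, or mature B when B220hi. Each population gave 1 small RNA library and 1 library of rRNA-depleted RNA, so no stage had a replicate, no p-value is given, and every interval below covers counting error alone. A difference between 2 libraries may come from the stage, the pool of mice, the sort or the library, and these cannot be told apart.

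let-7 is transcribed as long precursors that are cut into hairpins and then into mature strands of which one, usually the 5p strand, is loaded into an Argonaute protein. Lin28 proteins bind the loop of the precursor, where the letters GGAG are a known contact, and recruit terminal uridylyltransferases that tag it for decay. In B-cell development Lin28b is known for its activity in fetal and neonatal progenitors, where it holds let-7 low and keeps let-7 targets such as Arid3a and Igf2bp3 active, while adult progenitors are known to have little of it.

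All 9 mature members carry the same seed, bases 2 to 8 counted from 1 at the 5′ end, which is the part that pairs with target mRNAs. The sequences are shown because the members are told apart only by the bases outside the seed. They are printed as the deposited table gives them, in DNA letters with the seed in capitals.
let-7a-5p: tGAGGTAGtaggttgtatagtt
let-7b-5p: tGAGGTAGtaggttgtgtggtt
let-7c-5p: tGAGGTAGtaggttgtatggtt
let-7d-5p: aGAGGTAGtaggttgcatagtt
let-7e-5p: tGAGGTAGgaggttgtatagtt
let-7f-5p: tGAGGTAGtagattgtatagtt
let-7g-5p: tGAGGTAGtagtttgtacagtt
let-7i-5p: tGAGGTAGtagtttgtgctgtt
miR-98-5p: tGAGGTAGtaagttgtattgtt
Each strand is 22 bases long. Against let-7a, let-7c differs by A19G, let-7e by T9G and let-7f by G12A, while let-7b carries A17G and A19G, with the let-7a base written first. let-7d differs by T1A and T16C, let-7g by G12T and T18C, miR-98 by G11A and A19T, and let-7i by G12T, A17G, T18C and A19T. Of the 36 pairs of members, 4 differ at 1 base only, and the most distant pair differs at 6. A tag with 1 wrong base can therefore pass from let-7a to let-7c, e or f, or between let-7b and let-7c, so the split among these 5 members is less certain than their sum. No other mouse-named row carries this seed. The row named let-7j has another seed and held 1 to 4 tags.

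The 9 members come from 12 hairpins on 7 chromosomes in the RefSeq annotation of GRCm38.p6, and all 9 matched an entry there by sequence. let-7a, let-7c and let-7f each have 2 hairpins with the same mature 5p strand, so their tags cannot be assigned to a locus. let-7a-1, let-7f-1 and let-7d lie together on chromosome 13, with 350 bases between the starts of the first pair and 1817 between let-7f-1 and let-7d. let-7b and let-7c-2 are 716 bases apart on chromosome 15, and let-7f-2 and miR-98 are 868 bases apart on chromosome X. let-7a-2 lies 5291 bases from miR-100 on chromosome 9, let-7c-1 lies 721 bases from miR-99a on chromosome 16, and let-7e lies 460 bases from miR-125a on chromosome 17. let-7g on chromosome 9 and let-7i on chromosome 10 share no cluster with another family member.

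The loop between the 2 strands of the hairpin was searched for the letters GGAG on the strand of the RNA, since this is where Lin28 proteins are known to bind. It was present in 9 of the 12 family hairpins and absent from those of let-7b, let-7c-2 and miR-98. Among all 644 mouse hairpins in the table with 2 annotated mature strands, 52 (8.07%) had GGAG between the strands. Some loops are shown as RNA, 5′ to 3′, to contrast a hairpin with the letters (capitals) and one without, once within let-7c and once between let-7e and let-7b. For let-7b the last 30 bases of the loop are given.
let-7c-1 (hairpin at chr16:77599657-77599750, plus strand): uagaguuacacccugGGAGuuaa
let-7c-2 (hairpin at chr15:85706603-85706697, plus strand): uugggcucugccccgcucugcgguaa
let-7e (hairpin at chr17:17830352-17830444, plus strand): gaggaagacacccgaGGAGauca
let-7b (hairpin at chr15:85707319-85707403, plus strand): agggcagugauguugccccuccgaagauaa
In each hairpin that holds them, the letters ended 3 or 4 bases before the 3p strand. The match describes the sequence and does not show that a protein was bound in these cells.

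Levels are given as CPM, the tags or counts of a row per 1000000 mouse-named tags or mRNA counts of its library. Depth in the small RNA libraries was 768752 mouse-named tags in pro-B, 1444396 in pre-B, 2106537 in immature B and 1060387 in mature B. The rRNA-depleted libraries were uneven, with 867920 and 849350 estimated mRNA counts in pro-B and mature B and 240231 and 223495 in pre-B and immature B. The 4 pan-B markers (Cd79a, Cd79b, Pax5, Ebf1) had counts in every library and summed to between 3434 and 5075 CPM. The 7 pro-B markers summed to 3239 CPM in pro-B and to 44.7 to 551 CPM in the other libraries. The 4 pre-B markers summed to 1278, 1066, 576 and 15.2 CPM from pro-B to mature B. Rag1, which is also on the pro-B list, was lower in pre-B (372 CPM) than in pro-B (918 CPM). Rag2 (109 and 316 CPM in pro-B and pre-B), Il2ra (68.0 and 83.3) and Vpreb3 (182 and 295) were higher in pre-B. The 9 immature and mature B markers summed to 4705, 7762, 10139.5 and 9514 CPM from pro-B to mature B. Among these 9, Fcer2a was at 0 except in mature B, while Cd93 was highest in pro-B (429 CPM) and lowest in mature B (56.5 CPM). Among markers of other cells, the 7 T and NK genes summed to 250 CPM in pro-B and to at most 8.95 CPM elsewhere. In pro-B the T-cell genes Cd3e and Cd3g had 0 and 2 counts. Gzma had 122 CPM there, Ncr1 44.9, Nkg7 43.8, Ccl5 19.6 and Klrd1 17.3. The 8 myeloid genes (Csf1r at 0 in every library) summed to 1071 to 1607 CPM, and the 5 erythroid genes to 85.0 to 264 CPM. The 5 plasmacytoid dendritic genes summed to 496 to 1683 CPM, highest in immature B through Ly6d, also a B lineage gene, while Siglech had 121, 0, 17.9 and 0 CPM from pro-B to mature B and Bst2, Tcf4 and Ccr9 were each highest in pro-B.

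let-7 tags were abundant in all 4 populations, and the family as a whole took between 6.58% and 8.29% of the mouse-named miRNA tags. The family held 52941 tags in pro-B, which was 6.89% of mouse-named tags (95% Clopper-Pearson interval 6.83 to 6.94). It held 119722 tags or 8.29% (8.24 to 8.33) in pre-B, 138576 tags or 6.58% (6.54 to 6.61) in immature B, and 74587 tags or 7.03% (6.99 to 7.08) in mature B. The share was highest in pre-B and lowest in immature B, and no pair of these intervals overlapped. On this scale the highest share was 1.26 times the lowest, a log2 range of 0.33, against a median log2 range of 2.24 over the 405 mouse miRNAs with a mean of at least 5 CPM. In bulk RNA a lower level in each cell and fewer cells with the miRNA cannot be told apart.

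The ratio of the family between neighbouring libraries was 1.2 (95% exact counting interval 1.19 to 1.22) for pre-B over pro-B, 0.794 (0.788 to 0.800) for immature B over pre-B, and 1.07 (1.06 to 1.08) for mature B over immature B. For mature B over pro-B it was 1.02 (1.01 to 1.03). These ratios are relative to the mouse-named total, and the typical miRNA moved against that total. The median log2 ratio of the 405 miRNAs was -0.73 for pre-B over pro-B and -1.18 for mature B over pro-B, beside 0.27 and 0.03 for the family. For the other steps the medians were -0.25 and 0.13 beside -0.33 and 0.10 for the family. When library sizes were set from the bulk of miRNAs by edgeR's trimmed mean of M-values (TMM), the family ratio became 1.81 for pre-B over pro-B and 1.57 for mature B over pro-B, and by DESeq2's median of ratios it became 1.88 for each. The gap between the family and the median miRNA was 1.0 and 1.21 on the log2 scale for these pairs of libraries, and library sizes cannot change it, since they move every miRNA of a library alike.

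The place of the pro-B library in the orders below rests on the scaling too. Per CPM the family was lowest in immature B, but with TMM or DESeq2 sizes it was lowest in pro-B, where pre-B was 1.81 and 1.88 times higher. With either of these sizes let-7a, b, c, d, f, g and i were all lowest in pro-B, while miR-98 was lowest in mature B with TMM and in pro-B with DESeq2. let-7e was highest in pro-B and lowest in immature B under all 3, with a range of 8.16-fold in CPM, 5.08-fold with TMM and 4.49-fold with DESeq2. The library with the highest level stayed the same under all 3 for every member except let-7b, which moved from pro-B to mature B. Levels below are CPM.

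let-7f-5p, the leading member, ranked between 5 and 7 among mouse miRNAs in every library. Its level was 30791 CPM in pro-B, 30464 in pre-B, 27259 in immature B and 35334 in mature B. It was alike in pro-B and pre-B, lowest in immature B and highest in mature B, with a highest over lowest ratio of 1.3.

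let-7a-5p followed as the second member in every library, and shares a precursor cluster with let-7f and let-7d on chromosome 13. Its level was 11720.3 CPM in pro-B, 21933 in pre-B, 14529 in immature B and 11062 in mature B. It peaked in pre-B, with a ratio of 1.87 (1.83 to 1.92) over pro-B, which was the highest member ratio of that comparison. let-7d-5p, from the same cluster, stood at 4991 CPM in pro-B, 6859 in pre-B, 5137 in immature B and 3667 in mature B. It peaked in pre-B as let-7a did, and was lowest in mature B.

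**Figure D1:**
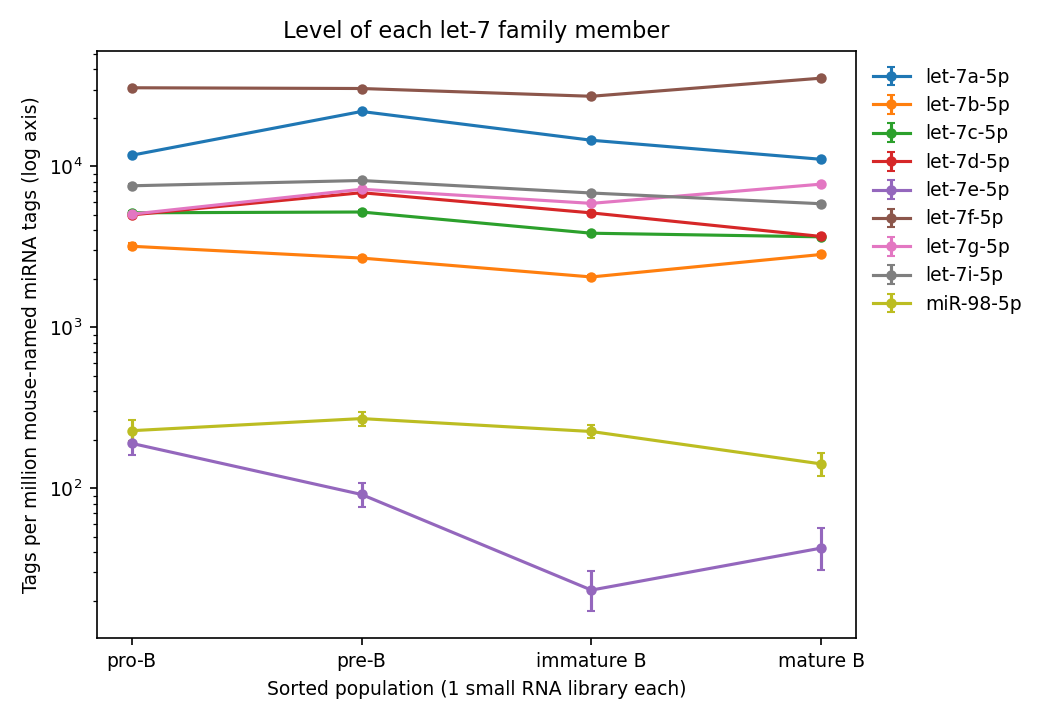
Level of each of the 9 let-7 family members in CPM (log axis) in the 4 sorted populations, 1 library each, with exact Poisson 95% intervals as bars and lines joining the points of a member. let-7f-5p lies on top from 27259 to 35334, miR-98-5p and let-7e-5p lie at the bottom, and let-7e-5p is the only member that spans more than 2-fold on this scale (with TMM sizes let-7a-5p, let-7d-5p and let-7g-5p do too).

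let-7i-5p and let-7g-5p each come from 1 hairpin. let-7i-5p held 7572 CPM in pro-B, 8167 in pre-B, 6828 in immature B and 5856 in mature B. let-7g-5p held 5043 in pro-B, 7207 in pre-B, 5887 in immature B and 7755 in mature B. let-7i was lowest in mature B on this scale, and let-7g was highest there. Mature B over pro-B gave let-7g the highest member ratio, 1.54 (1.48 to 1.60).

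let-7c-5p and let-7b-5p share a cluster on chromosome 15. let-7c-5p held 5143 CPM in pro-B, 5203 in pre-B, 3841 in immature B and 3648 in mature B. let-7b-5p held 3187 in pro-B, 2692 in pre-B, 2054 in immature B and 2834 in mature B. let-7c was higher in the first pair of libraries than in the second, while let-7b was lowest in immature B. miR-98-5p was sparse, with 175, 391, 474 and 150 tags from pro-B to mature B, or 228, 271, 225 and 141 CPM. Its Poisson intervals overlapped among pro-B, pre-B and immature B, and mature B lay below all of them.

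let-7e-5p was the rarest member and had the widest range. It had 146 tags in pro-B, 132 in pre-B, 49 in immature B and 45 in mature B, or 190 (160 to 223), 91.4 (76.5 to 108), 23.3 (17.2 to 30.8) and 42.4 (31.0 to 56.8) CPM. It was highest in pro-B and lowest in immature B, and neighbouring libraries did not overlap in these intervals. Its highest over lowest ratio was 8.16, where the other 8 members lay between 1.3 and 1.98. let-7e ranked 154 among mouse miRNAs in pro-B and 216 in immature B.

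A member was called when its level differed at least 2-fold between libraries and the exact counting interval of the ratio excluded 1. For pre-B against pro-B, 0 members were called higher and 1 lower, where 5.93% of the 405 miRNAs were called higher and 38.5% lower. The call was let-7e, with a ratio of 0.481 (0.377 to 0.613), and it was lost under every other library size tried (0.501 to 0.751). With TMM sizes let-7a, let-7d and let-7g were instead called higher, at 2.81, 2.06 and 2.15, and the split over all miRNAs went from 24 higher and 156 lower to 56 higher and 94 lower. For immature B against pre-B, 0 members were called higher and 1 lower beside 6.17% and 15.8% of all. This call was again let-7e, at 0.255 (0.18 to 0.356), and it held under every library size tried (0.256 to 0.297). All 9 members had ratios below 1 in this comparison, with let-7f nearest to 1 at 0.895, although let-7f exceeded 1 (1.04) with DESeq2 size factors, which also turned the split over all miRNAs from 25 higher and 64 lower to 34 and 56.

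For mature B against immature B no member was called in either direction, beside 30.6% of miRNAs called higher and 22% lower, and 0 were called when edgeR's exact test replaced the interval, at a dispersion of 0.0001 or 0.16. The member ratios ran from 0.629 for miR-98 (0.520 to 0.757) to 1.82 for let-7e (1.19 to 2.79). For mature B against pro-B, 0 members were called higher and 1 lower, beside 8.89% and 49.1%. let-7e was the member called, at 0.223 (0.156 to 0.314), and stayed below 0.5 under every library size tried. With TMM sizes let-7g was called higher at 2.36, and with DESeq2 size factors let-7g and let-7f were, at 2.83 and 2.11, while the split over all miRNAs went from 36 higher and 199 lower to 72 and 145 with TMM and 86 and 126 with DESeq2.

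**Figure D2:**
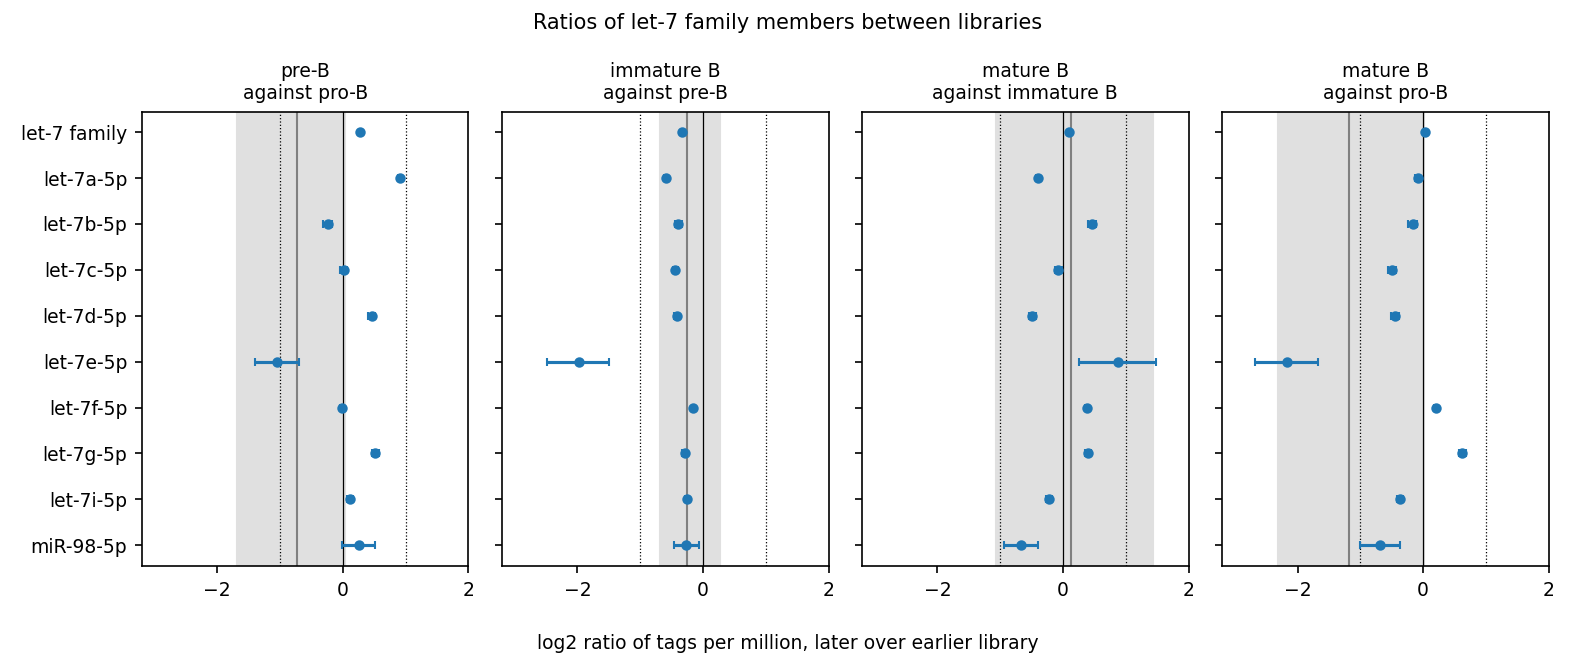
log2 ratio of CPM between 2 libraries for the let-7 family sum and its 9 members, with 95% exact counting intervals as bars, in 4 comparisons. The grey band holds the middle 50% of the 405 mouse miRNAs tested and the grey line their median, and dotted lines mark 2-fold. let-7e-5p lies beyond 2-fold to the left in 3 comparisons, and in pre-B and mature B against pro-B the family sum lies to the right of the median of all miRNAs.

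The balance among members can be read inside each library, where no scaling enters. let-7f made up 44.7% (44.3 to 45.1) of family tags in pro-B, 36.8% (36.5 to 37.0) in pre-B, 41.4% (41.2 to 41.7) in immature B and 50.2% (49.9 to 50.6) in mature B. let-7a made up 17.0% in pro-B, 26.5% in pre-B, 22.1% in immature B and 15.7% in mature B. These shares mirrored each other, with let-7f least and let-7a most in pre-B. There were 2.63 (2.56 to 2.69) let-7f tags per let-7a tag in pro-B, 1.39 (1.37 to 1.41) in pre-B, 1.88 (1.85 to 1.90) in immature B and 3.19 (3.13 to 3.26) in mature B. These members differ at 1 base, and whether miscalled or edited bases entered the ratio was not tested. Counted together, the 5 members linked by single-base differences (let-7a, b, c, e and f) took 74.1%, 72.8%, 72.5% and 75.2% of family tags from pro-B to mature B.

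let-7g and let-7i are also set apart by the mature B library. There were 0.666 (0.639 to 0.694) let-7g tags per let-7i tag in pro-B, 0.882 (0.859 to 0.906) in pre-B, 0.862 (0.842 to 0.883) in immature B and 1.32 (1.28 to 1.37) in mature B. let-7g fell short of let-7i in the first 3 libraries and exceeded it in mature B. Against let-7d, let-7g was near parity from pro-B to immature B (1.01, 1.05 and 1.15) and at 2.11 (2.04 to 2.2) in mature B. let-7a per let-7d, both from the cluster on chromosome 13, ranged from 2.35 to 3.2.

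**Figure D3:**
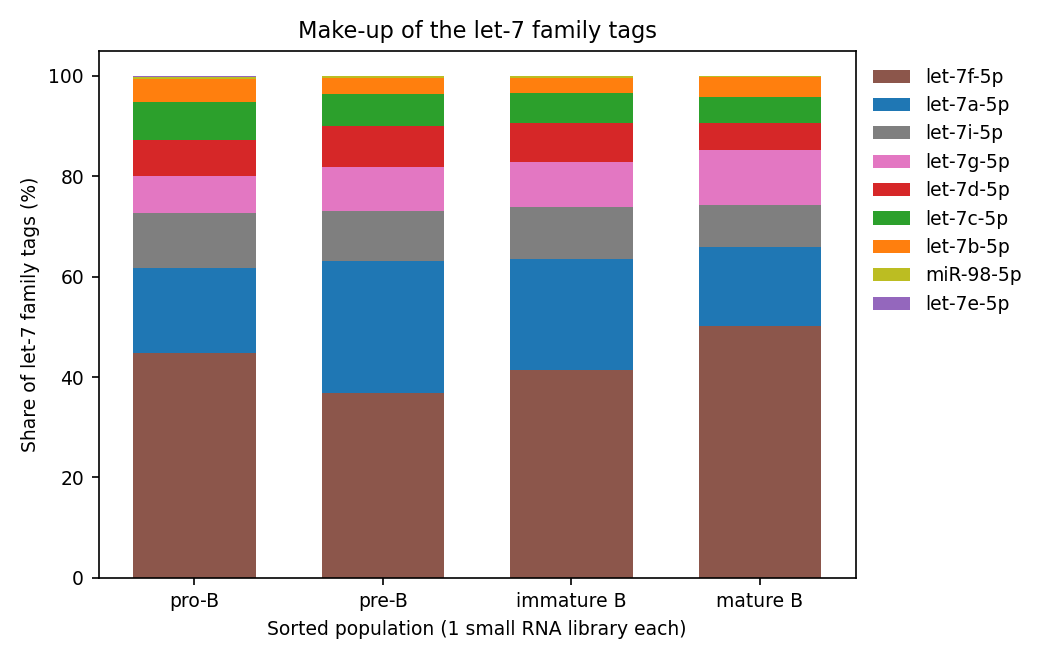
Share of each member in the let-7 family tags of each library (%), stacked to the whole. let-7f-5p and let-7a-5p together take 61.7% in pro-B, 63.2% in pre-B, 63.5% in immature B and 66.0% in mature B, with the least let-7f-5p (36.8%) in pre-B and the most (50.2%) in mature B.

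Sorted by their hairpins, the 6 members whose every hairpin has GGAG in the loop (let-7a, d, e, f, g and i) took 87.6% (87.3 to 87.9) of family tags in pro-B, 90.1% in pre-B, 90.7% in immature B and 90.6% in mature B. The 2 members without it (let-7b and miR-98) took 4.96% (4.77 to 5.15) in pro-B, 3.57% in pre-B, 3.46% in immature B and 4.23% in mature B. The share with GGAG was thus lowest and the share without it highest in pro-B, by a few percentage points. let-7c, with 1 hairpin of each kind, was also highest in pro-B, at 7.47%, and took 6.28% in pre-B, 5.84% in immature B and 5.19% in mature B. It differs by 1 base from let-7a and from let-7b, so miscalled tags can pass between these classes.

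The opposite arm of the let-7 hairpins gave 8 rows, of which let-7d-3p alone reached 100 tags in a library. Its sequence is given in the same way as above.
let-7d-3p: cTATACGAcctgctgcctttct
let-7d-3p held 2727 tags in pro-B, 3399 in pre-B, 5038 in immature B and 3940 in mature B, or 3547, 2353, 2392 and 3716 CPM. The ends of the series were high and the middle libraries low, whereas let-7d-5p was highest in pre-B, but with TMM sizes let-7d-3p was high in mature B alone. Per let-7d-5p tag there were 0.711 (0.676 to 0.747) let-7d-3p tags in pro-B, 0.343 (0.330 to 0.357) in pre-B, 0.466 (0.450 to 0.481) in immature B and 1.01 (0.969 to 1.06) in mature B. No 2 of these intervals overlapped, and in mature B both strands were equally frequent within counting error. The other 3p strands were rare, with at most 86 tags in any library. For let-7i the 3p strand had 34, 37, 82 and 86 tags, and for let-7b 16, 21, 24 and 42. For both, the 3p tags per 5p tag were highest in mature B (0.0138 and 0.0140, against at most 0.00653 elsewhere), and for miR-98 too the ratio was highest there (0.173). The 3p strands of let-7a-1 and let-7c-2 carried identical values and are 1 sequence listed under both names.

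**Figure D4:**
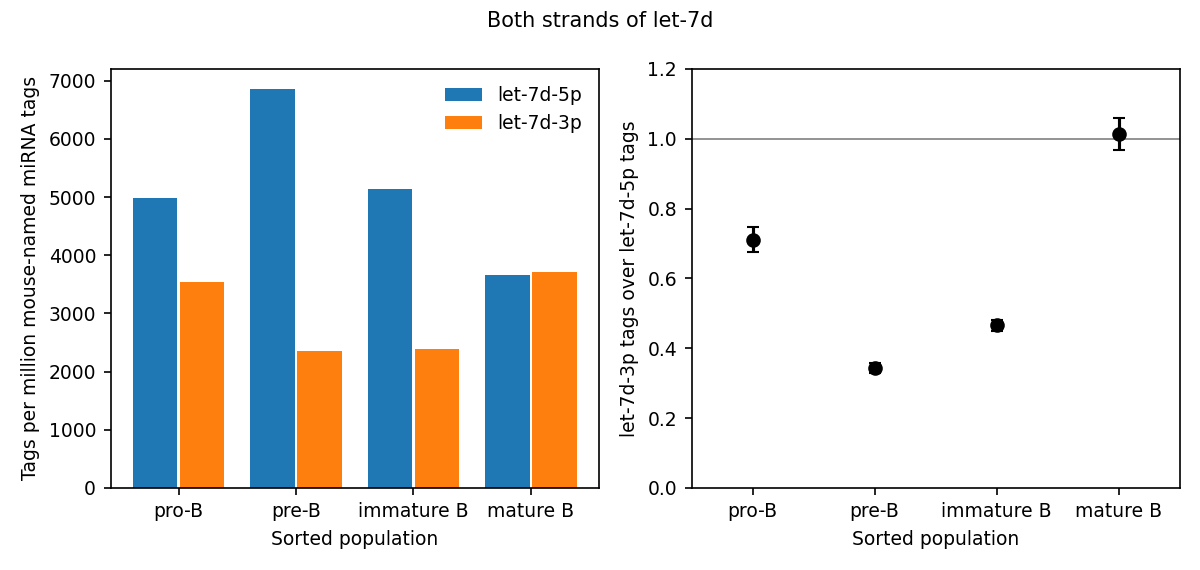
Both strands of let-7d in the 4 libraries. Left, CPM of let-7d-5p and let-7d-3p as bars from 0. Right, let-7d-3p tags per let-7d-5p tag with 95% exact counting intervals, which falls to 0.343 in pre-B and reaches 1.01 in mature B.

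The 5 miRNAs measured of the miR-99/100 and miR-125 families lie in clusters with let-7 genes. Their highest level was 11.5 to 17.4 times the lowest for 4 of them and 5.67 times for miR-100-5p, beside 8.16 times for let-7e, the let-7 member with the widest range. miR-125b-5p went from 10488 CPM in pro-B to 3916 in pre-B, 621 in immature B and 1823 in mature B. miR-99a-5p, next to let-7c-1, had 9449, 3153, 543 and 1120.4 CPM in the same order. miR-100-5p, next to let-7a-2, had 1388, 2293, 404 and 859. These were lowest in immature B, and miR-100 differed in being highest in pre-B. The partners of let-7e were miR-125a-5p with 2462, 615, 198 and 592 CPM and miR-99b-5p with 1513, 442, 132 and 312. These had the order of let-7e itself, highest in pro-B and lowest in immature B, as did miR-125b and miR-99a from other clusters. Of the 5 partners, 4 were called lower and 0 higher for pre-B against pro-B, beside 38.5% and 5.93% of all miRNAs tested. For immature B against pre-B 5 were called lower (15.8% of all), for mature B against immature B 5 higher (30.6% of all), and for mature B against pro-B 4 lower (49.1% of all). The first count rested on the scaling. With TMM or DESeq2 sizes, chosen for these counts after the data were seen, 2 were lower (miR-99b and miR-125a) and 1 higher (miR-100) for pre-B against pro-B. miR-99a lost its call for mature B against immature B with TMM and with clean tags, and the other partner calls stayed.

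Within the let-7e cluster, there were 7.97 (6.70 to 9.53), 4.83 (4.0 to 5.87), 5.67 (4.18 to 7.85) and 7.36 (5.38 to 10.3) miR-99b tags per let-7e tag from pro-B to mature B. This ratio stayed within 2-fold while let-7e itself varied 8.16-fold. The likeness is not particular to this cluster, since miR-99a and miR-125b from other clusters shared the order of let-7e over the libraries. miR-125a tags per let-7e tag were 13.0, 6.73, 8.51 and 14.0 in the same order, and the lowest and highest of these lay slightly over 2-fold apart. By contrast, miR-99a per let-7c ran from 1.84 (1.77 to 1.91) in pro-B to 0.606 in pre-B, 0.141 (0.133 to 0.150) in immature B and 0.307 in mature B, which spans far more. let-7c tags also come from the cluster with let-7b.

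Some miRNAs that mark other cells were, like let-7e, highest in pro-B and lowest in immature B. miR-143-3p, known from smooth muscle and stroma, had 5714 CPM in pro-B, 2576 in pre-B, 84.5 in immature B and 1597 in mature B. miR-145a-5p of the same cluster had 449, 111, 21.4 and 113, and the endothelial miR-126a-3p had 1220.2, 573, 131 and 141. The erythroid miR-451a had 157, 47.1, 18 and 67.9, while the erythroid miR-144-3p was highest in pre-B (116, 244, 23.3 and 43.4) and the myeloid miR-223-3p ranged from 122 to 308. Like let-7e, miR-143, miR-145a and miR-451a were highest in pro-B and lowest in immature B under each of the 3 scalings, and their part in its change was not tested.

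By a fixed measure of likeness, the root mean square distance between centred log2 levels over the 4 libraries, the miRNA nearest to the family sum among 118 others with at least 100 tags in every library was miR-26a-5p, at 0.113. Its levels were 87224 CPM in pro-B, 98497 in pre-B, 97039 in immature B and 90884 in mature B. On the CPM scale it too was highest in pre-B, but it was lowest in pro-B, where the family was lowest in immature B. With TMM or DESeq2 sizes the family too was lowest in pro-B, and likeness was measured on CPM alone. Next came miR-872-3p at 0.179, miR-423-3p at 0.214, miR-103-3p at 0.230 and miR-361-5p at 0.232. None of these was highest in pre-B, and miR-423-3p (6610 CPM) and miR-361-5p (2702 CPM) were lowest there. Among the members themselves, let-7i (0.150) and let-7f (0.164) were nearest to the sum that contains them, and let-7e (1.10) was farthest.

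Lin28b was at the limit of detection in every population. It had 0 counts in pro-B, 0 in pre-B, 1 in immature B (4.47 CPM, FPKM 0.04) and 0 in mature B. A count of 0 allows up to 3 counts, which is 3.46 CPM in pro-B, 12.5 in pre-B and 3.53 in mature B. The upper end of the exact two-sided 95% Poisson interval was 4.25 CPM in pro-B, 15.4 in pre-B, 24.9 in immature B and 4.34 in mature B. The pro-B and mature B libraries set the tighter limits, and no difference between stages was detectable at this depth. Its paralog Lin28a was at 0 in all 4. Such values are common in the table, since 7716 of 22298 mRNA rows (34.6%) held at most 1 count over the 4 libraries. As no library had 20 counts of Lin28b, no gene was ranked by likeness to it.

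The mRNA libraries of pre-B and immature B were far shallower than the others, and how they are scaled decides much of what follows. On the deposited FPKM scale (fragments scaled to transcript length and library size) the same genes lay lower in pre-B against pro-B by a median of 1.93 on the log2 scale than on the CPM scale, and higher in mature B against immature B by 1.92. For mature B against pro-B the scales differed by a median of 0.01, but single genes differed more. The shift was not traced further. Values below are CPM of the mRNA total, tested where the mean reached 20 CPM.

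The mRNAs of the proteins that tag or degrade Lin28-bound let-7 precursors had counts in every library. In pre-B these were as low as 6 for Dis3l2 and 18 for Tut7. Tut4, a terminal uridylyltransferase, had 225 CPM in pro-B, 105 in pre-B, 124 in immature B and 336 in mature B, from 195, 25, 28 and 286 rounded counts. Tut7, the second such enzyme, had 190, 74.9, 158 and 245 CPM. Dis3l2, the exonuclease that degrades uridylated precursors, had 44.9, 25, 58.2 and 45.9 CPM from at most 39 counts. Both transferases were lowest in pre-B and highest in mature B. Dicer1, which cuts the hairpin to the mature strands and is itself a let-7 target, had 150, 62.4, 94.0 and 218 CPM in the same order of libraries. Xpo5, which exports hairpins from the nucleus, had 76.0, 16.7, 89.5 and 81.2 CPM, the pre-B value resting on 4 counts.

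Of 22 listed processing genes, 17 passed the filter, and Lin28a, Lin28b, Trim71, Prkra and Ago4 did not. For pre-B against pro-B, 0 were called higher and 7 lower (Tut4, Tut7, Dicer1, Xpo5, Ago2, Khsrp and Ddx5), where 16% of the 7366 mRNAs tested were called higher and 27.6% lower. The median log2 ratio was -0.75 for the list and -0.32 for all. For immature B against pre-B, 2 were higher (Tut7 and Xpo5) and 1 lower (Ago3, 6 counts against 0) beside 12.2% and 12%. For mature B against immature B, 7 were higher (Tut4, Dicer1, Ago2, Ago3, Trim25, Ddx5 and Ddx17) and 0 lower beside 23% and 19%, with medians of 0.63 and 0.13. For mature B against pro-B, where depths were alike, 1 was higher (Ago3, at 2.63, 1.76 to 4.0) and 0 lower beside 10.4% and 17.2%. In FPKM the log2 ratio of Ago3 was 0.83, under 2-fold, and that of Tut4, not called in CPM, was 1.01. On the FPKM scale 16 of the 17 were called lower in pre-B and 16 higher in mature B against immature B, so these counts follow the scaling. Hnrnpa1, Ago1 and Adar had at least 20 counts in every library and were called in no comparison on the CPM scale, with 323 to 595, 112 to 184 and 133 to 226 CPM.

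Genes of the Lin28b axis known from fetal progenitors were read in the same libraries. Igf2bp3, an RNA-binding protein and let-7 target, had 101 CPM in pro-B, 183 in pre-B, 255 in immature B and 58.9 in mature B, from 88, 44, 57 and 50 counts. Arid3a, a transcription factor and let-7 target, had 126, 129, 152 and 63.6 CPM. Both were lowest in mature B on this scale, and both were called lower in mature B against immature B. The ratios were 0.231 (0.155 to 0.343) for Igf2bp3 and 0.418 (0.267 to 0.662) for Arid3a. On the FPKM scale these log2 ratios were -0.19 and 0.93, so the direction for Arid3a turned. Arid3b, its paralog, had 44.9, 58.3, 130 and 174 CPM and was called higher in mature B against pro-B, at 3.88 (2.71 to 5.67). Hmga1, a chromatin protein, had 144, 142, 71.6 and 37.5 CPM and was called lower in mature B against pro-B. Hmga2 was at 0 except for 4 counts in pre-B, and Igf2bp1 was at 0 in every library.

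let-7 targets of growth and division differed in both directions between the end points of the series. Myc, a growth-promoting transcription factor, had 55.3 CPM in pro-B, 16.7 in pre-B, 58.2 in immature B and 224 in mature B, and mature B over pro-B was 4.04 (2.93 to 5.67). Mycn had 2 counts in pro-B and none elsewhere. Cdk6, a G1 kinase, had 362, 70.8, 121 and 97.7 CPM, with mature B over pro-B at 0.270 (0.209 to 0.345). Ccnd1 and Ccnd2, its cyclin partners, had 109, 28.5, 29.5 and 19.2 CPM and 122, 41.6, 166 and 48.3 CPM, and both were called lower in mature B against pro-B. Ezh2, a histone methyltransferase, had 372, 167, 35.8 and 37.7 CPM and the lowest ratio among the targets past the filter for these end points, 0.101 (0.068 to 0.146). Irs2, an insulin receptor substrate, had 221, 56.6, 0 and 1694 CPM, and its ratio of 7.66 (6.58 to 8.95) for mature B over pro-B was the highest among them. Nras, a signalling GTPase, had 113, 20.8, 116 and 88.3 CPM.

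Of 45 listed targets, 26 passed the filter. For pre-B against pro-B, 1 was called higher (Dusp12, 21 counts against 11) and 15 lower, beside 16% and 27.6% of all mRNAs tested. The lower ones were Myc, Cdk6, Ccnd1, Ccnd2, Nras, Ezh2, Igf1r, Irs2, Dicer1, Rrm2, Bach1, Map4k4, Slc20a1, Tet2 and Plagl2. For immature B against pre-B, 4 were called higher (Myc, Nras, Ccnd2 and Arid3b) and 6 lower (Ezh2, Irs2, E2f2, Insr, Galnt1 and Hk2). Of all mRNAs tested, 12.2% were called higher and 12% lower in this step. In mature B against immature B, 9 were higher (Myc, Irs2, Dicer1, Insr, Galnt1, Bach1, Map4k4, Slc20a1 and Tet2) and 5 lower (Igf2bp3, Arid3a, Ccnd2, E2f2 and Dusp12). Over all mRNAs tested the shares were 23% and 19%. On the FPKM scale this split of the targets was 15 higher and 0 lower. Between mature B and pro-B, 4 were higher (Irs2, Myc, Arid3b and Galnt1) and 10 lower, beside 10.4% and 17.2% of all mRNAs tested. The lower ones were Ezh2, Rrm2, Ccnd1, Igf1r, Hmga1, E2f2, Cdk6, Tgfbr1, Ccnd2 and Bach1. In FPKM Cdk6 lay just under 2-fold (log2 ratio -0.995). Nras (-2) and Arid3a (-1.44), not called in CPM between these end points, lay beyond 2-fold in FPKM. The median log2 ratio of the targets was -0.56 for these end points beside -0.12 for all mRNAs tested, and -1.35, 0.17 and 0.12 for the 3 successive steps beside -0.32, 0.04 and 0.13. The let-7 family sum differed by a ratio of 1.02 between the same end points on the mouse-named scale, by 1.57 with TMM and by 1.88 with DESeq2 sizes.

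**Figure D5:**
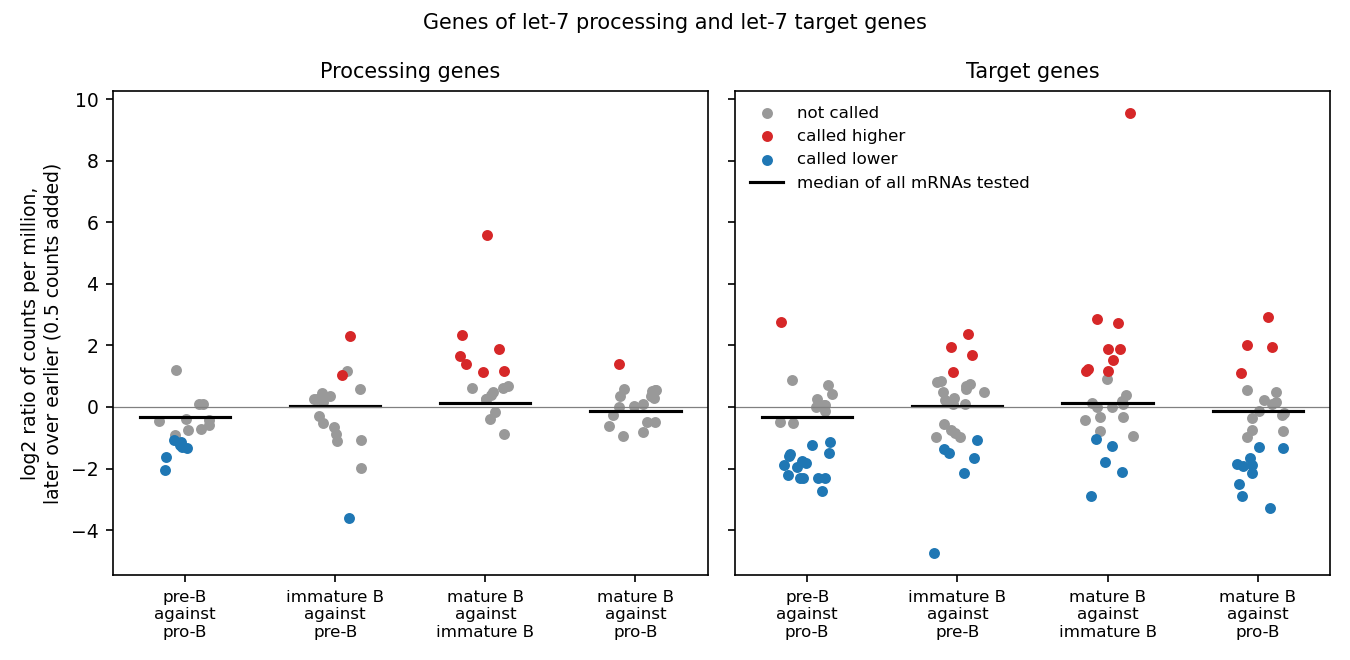
log2 ratio of CPM between 2 libraries (0.5 counts added to each) for 17 processing genes and 26 let-7 target genes past the filter, with calls in colour and the median of 7366 mRNAs as a black bar. In mature B against pro-B, 10 targets lie in the lower colour and 4 in the upper, and 1 processing gene is called. Of all mRNAs tested, 17.2% were called lower and 10.4% higher there.

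The hosts of 3 let-7 loci were also read. Huwe1, whose introns hold let-7f-2 and miR-98, had 1112 CPM in pro-B, 354 in pre-B, 302 in immature B and 1022 in mature B. Wdr82, which hosts let-7g, had 188, 20.8, 139 and 201 CPM, and Spaca6, at the let-7e cluster, was at 0 in all. Huwe1 was low in the 2 middle libraries and Wdr82 in pre-B, from 5 counts, while miR-98 and let-7g were not lowest there. On the FPKM scale Wdr82 had 14.1, 0.94, 1.57 and 10.87 from pro-B to mature B, low in the 2 middle libraries. The long noncoding host of miR-99a and let-7c, Mir99ahg, had 14.1, 2, 3.14 and 3.84 estimated counts from pro-B to mature B. These few counts were not scaled to depth, which was far lower in pre-B and immature B, so they do not compare the libraries. The host of miR-100, Mir100hg, had none.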

How the data were processed

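The authors pooled sorted bone marrow cells of 3 mice per population and sequenced 4 small RNA and 4 rRNA-depleted libraries. Per the study's methods, small RNA tags were named by mouse miRBase entries first, then by miRNAs of other species, and the authors deposited tag counts per miRNA and TPM values relative to all clean tags. For mRNAs and long noncoding RNAs the authors deposited estimated counts, not all whole, and FPKM values. The submitters' processing notes name Bowtie 0.12.2 with no role, and a genome build that the sequence table used here does not share, so coordinates are those of RefSeq on GRCm38.p6.

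Tag counts were divided by the mouse-named total, and mRNA counts, rounded for intervals, by the mRNA total. With 1 library per stage a feature was called at 2-fold or more with a 95% exact (Clopper-Pearson) interval of the ratio excluding 1. Tags without molecular identifiers are not independent molecules, so intervals and the floor of 3 counts cover counting error only. Features tested had a mean of at least 5 (miRNAs) or 20 (mRNAs) CPM, and 0.5 counts were added for medians. The ratio script was tested on simulated counts. Alternatives used edgeR 4.0.16 and DESeq2 1.42.0 under R 4.3.3, with scipy 1.17.1 for intervals. The members and gene lists were chosen with earlier results of these data known. All members were named, other miRNAs of the hairpins and clusters from 100 tags in a library, and listed genes when called or at the core of the Lin28 pathway. Some listed genes are not reported here and enter no list count. Circular RNAs were not used here.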

Additional observations from a re-analysis of the deposited data

Results flagged for a closer look

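Tags with the let-7 seed were also listed under names of other species, outside the 9 mouse-named members, at 648 in pro-B, 1229 in pre-B, 1698 in immature B and 780 in mature B. They were picked out because such a signal exceeded the 3 counts that a count of 0 allows in rows the comparisons leave aside. They equalled 1.22%, 1.03%, 1.23% and 1.05% of the family tags in the same order. The most frequent of the 3 rows (600, 1137, 1600 and 723 tags) begins with the whole of let-7b-5p and has 2 further bases, and the second (47, 83, 95 and 52 tags) begins with the whole of let-7d-5p and has 3 further bases. The third held 1 to 9 tags.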

How the results depend on the processing

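The family ratio moved out of its counting interval with library sizes from clean tags (1.27 for pre-B over pro-B and 1.01 for mature B over immature B), from all listed miRNA tags (1.25, 0.803, 1.06 and 1.06 for the 3 steps and for mature B over pro-B), from TMM (1.81, 0.850, 1.02 and 1.57) and from DESeq2 size factors (1.88, 0.925, 1.08 and 1.88), each with its direction kept. The other 6 of 20 alternative family ratios stayed inside it. Members called for pre-B against pro-B became 0 with clean tags, 0 with all tags, 3 with TMM, 3 with DESeq2, 2 at 1.5-fold and 0 with edgeR's exact test at a dispersion of 0.16, from 1. For immature B against pre-B they became 2 at 1.5-fold, for mature B against immature B 2 at 1.5-fold from 0, and for mature B against pro-B 2 with TMM, 3 with DESeq2 and 3 at 1.5-fold. Single members kept their side of 1 for mature B against immature B in all 4 scalings, while for mature B against pro-B 5 of 9 changed side with TMM and 6 with DESeq2.

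Processing genes called became 16 for pre-B against pro-B and 16 for mature B against immature B on the FPKM scale, from 7 each, and 2 for mature B against pro-B with no filter, from 1. Targets called for pre-B against pro-B became 25 on the FPKM scale, from 16. All miRNAs called fell from 180, 89, 213 and 235 to 89, 40, 112 and 124 with a minimum of 50 CPM, which tests fewer miRNAs, and to 84, 42, 123 and 148 with a dispersion of 0.16. The cause of the other shifts was not tested. Depth limits let-7e, miR-98 and Lin28b most, and the pre-B and immature B mRNA libraries. No paired analysis was possible because each stage has 1 library of each kind.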
